A study of Mus musculus with 13 samples.

Results

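The genes described here are 6 that sense, carry or oxidize short-chain fatty acids and related ligands, Ffar2, Ffar4, Hcar2, Slc5a8, Slc16a1 and Acads, and each was taken by its symbol from the gene list of the deposited matrices, 6 of 32285 genes. They were measured by droplet-based single-cell RNA sequencing in 13 libraries, 10 of colon tumors and 3 of adjacent mucosa. All 3 mice were C57BL/6J animals that carried both an Apc mutation (ApcMin/+) and a p16 epimutation (p16cis/cis) and ate the diet supplemented with folate and cofactors, so that tumors and mucosa share genotype and diet and no diet was compared. Mouse A (24 weeks) gave 4 tumors, mouse B (23 weeks) gave 2 and mouse C (20 weeks) gave 4, and each gave 1 sample of mucosa. The protocol names EDTA and TrypLE for dissociating mucosa and a tumor dissociation kit for tumors, so tissue and dissociation cannot be told apart. Values are unique molecular identifiers (UMIs), each standing for 1 captured RNA molecule, summed over the cells of a class in a library and given per 1000000 UMIs of that sum (CPM).

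Gut bacteria ferment fiber into acetate, propionate and butyrate, and colonocytes burn butyrate as a main fuel. Ffar2 is a G protein-coupled receptor of short-chain fatty acids, Hcar2 is a receptor of niacin, the ketone body beta-hydroxybutyrate and butyrate, and Ffar4 belongs here only loosely, since its ligands are long-chain fatty acids. Slc5a8 carries monocarboxylates such as butyrate into the cell together with sodium, Slc16a1 carries them together with protons, and Acads, the short-chain acyl-CoA dehydrogenase of mitochondria, catalyzes the opening step of butyryl-CoA oxidation.

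The 3 genes of butyrate uptake and oxidation had lower values in tumor than in mucosa cells of the same absorptive-like class, as described below, and their promoters are shown for that reason. RefSeq promoter sequences (GRCm38.p6, the mm10 assembly) matched 5 of the 6 genes, and the 250 bases before the start of each are given in the direction of transcription, with CG dinucleotides, the sites at which mammalian DNA is methylated, in capitals.
Slc5a8 promoter, chr10:88885742-88885991, plus strand: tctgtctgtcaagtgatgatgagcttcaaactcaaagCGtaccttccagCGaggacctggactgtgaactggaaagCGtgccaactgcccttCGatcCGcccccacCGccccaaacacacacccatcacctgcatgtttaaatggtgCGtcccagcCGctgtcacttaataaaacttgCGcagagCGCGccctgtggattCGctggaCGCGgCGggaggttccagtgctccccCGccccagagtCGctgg
Slc16a1 promoter, chr3:104638414-104638663, plus strand: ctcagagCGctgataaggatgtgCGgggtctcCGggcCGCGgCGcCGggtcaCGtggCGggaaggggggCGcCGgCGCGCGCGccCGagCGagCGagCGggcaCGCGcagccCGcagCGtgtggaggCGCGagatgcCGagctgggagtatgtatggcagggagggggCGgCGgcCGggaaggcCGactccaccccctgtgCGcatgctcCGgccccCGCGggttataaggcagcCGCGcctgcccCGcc
Acads promoter, chr5:115119347-115119596, minus strand: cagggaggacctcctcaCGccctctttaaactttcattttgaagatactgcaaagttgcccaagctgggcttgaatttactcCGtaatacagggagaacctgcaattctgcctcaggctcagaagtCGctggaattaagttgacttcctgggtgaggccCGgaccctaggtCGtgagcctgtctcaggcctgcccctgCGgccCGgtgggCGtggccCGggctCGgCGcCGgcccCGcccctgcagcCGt
The windows hold 17 CG sites in Slc5a8, 37 in Slc16a1 and 14 in Acads, against a median of 6 over 32851 promoter windows. At least as many sites are found in 23.5% of windows for Slc5a8, 2.2% for Slc16a1 and 29.4% for Acads, so of the 3 it is the Slc16a1 promoter whose CG count few other promoters reach. The letters TTTATNG, searched on both strands as a short form of the Cdx motif, occur in 9.81% of all windows and in none of the 5 genes' windows. Methylation was not measured in these libraries. Slc5a8 itself spans chr10:88885992-88929515, Slc16a1 spans chr3:104638668-104658462, Acads spans chr5:115110299-115119346 and Hcar2, whose promoter is not shown, spans chr5:123863570-123865499.

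In units of 1000000 UMIs, the libraries held 57.2 to 93.2 in tumors and 84.9 to 116 in mucosa, and 106735 cells remained after filtering, of which 17881 in tumors and 14416 in mucosa were epithelial and 65834 and 6425 immune by their markers. In the same units, epithelial sums held 22.5 to 39.7 in tumors and 57.4 to 75.2 in mucosa, and immune sums held 26.2 to 41.7 and 3.81 to 9.05. Of 117200 distinct barcodes, 1674 occurred in more than 1 library, at most 0.391% for any pair of libraries. The sex labels and the counts disagree, since 7 libraries are labelled female and 2 of the 3 animal codes carry both labels, while all 13 libraries had 2 to 10 UMIs of Xist and 2280 to 3985 UMIs of the Y-linked gene Ddx3y. Some values are also given without those 7 libraries, but only mucosa 2 and 5 tumors are then left, and the lone mucosa sample is assumed to vary like the tumors. Tumors of 1 mouse share their animal, and p-values below over libraries measure the spread between libraries. Intervals on shares of cells cover counting error only. The 6 genes were selected on their UMI counts in these same libraries, by how they differ between tissues and classes, so their tissue differences are given as a description with no test.

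In the epithelial cells, summed over 16 clusters, 5 of the 6 genes had lower values in tumors and 1, Hcar2, had higher values. The fit across all 15519 genes tested (edgeR) put all 6 genes past an adjusted p of 0.05, beside 63.7% of all genes tested, 30.1% lower and 33.6% higher. The 6 were chosen on these differences, so where one of them is said below to lie past the threshold of a tissue fit or not, this describes the fit and is no test. In 5 of the 6, all but Slc16a1, the groups did not overlap, beside 12.8% of genes tested with every tumor below every mucosa and 32.7% with every tumor above. The median log2 fold change over all genes tested was 0.04 with TMM scaling and 0.30 with library totals, and the share of calls that were higher was 52.7% and 69.2%.

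Ffar2 was at 66.5, 37.7 and 30.5 CPM in the epithelial cells of mucosa 1, 2 and 3. In the 10 tumors it ran from 0.934 to 5.24 CPM with a median of 2.22. Every tumor lay below every mucosa, and the mucosa mean was 15.8 times the tumor mean, a log2 fold change of -4.23 (SE 0.35).

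Ffar4 was at 33.1, 30.3 and 22.7 CPM in mucosa and at 7.18 to 16.2 CPM in tumors, with a median of 13.2. The groups did not overlap, and the log2 fold change of -1.43 (SE 0.21) was the smaller of those of the 2 Ffar receptors.

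Slc5a8 was at 53.2, 81.6 and 86.8 CPM in mucosa and at 6.23 to 37.3 CPM in tumors, with a median of 16.6. The highest tumor was tumor 10, and it still lay below the lowest mucosa, with a log2 fold change of -2.37 (SE 0.43) between the tissues. Slc16a1, the proton-coupled carrier, was at 28.2, 43.9 and 42.4 CPM in mucosa and at 13.2 to 33.2 CPM in tumors, with a median of 23.4. Here the groups overlapped, since tumors 6, 7 and 10 exceeded mucosa 1, although every tumor lay below the mucosa of its own mouse. Its log2 fold change was -0.95 (SE 0.22).

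Acads was at 206, 310 and 371 CPM in mucosa and at 82.6 to 134 CPM in tumors, with a median of 102. All tumors lay below all mucosa samples, with a log2 fold change of -1.78 (SE 0.15).

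Hcar2 was the exception. It had 3, 7 and 12 UMIs in the epithelial cells of mucosa 1, 2 and 3, that is 0.0523, 0.0958 and 0.160 CPM, against 1.48 to 6.76 CPM in tumors with a median of 3.28. Per UMI of the sums, tumors held 34.6 times as many Hcar2 UMIs as mucosa (95% exact interval 22.7 to 55.4, for counting error only), and the log2 fold change was 4.92 (SE 0.55), or 6.64 (SE 0.61) with doublets kept. The 9 neutrophil markers moved with it, since all 9 were higher in the epithelial sums of every tumor than of every mucosa, with summed levels of 65.3 to 349 CPM in tumors and 7.02 to 18.7 CPM in mucosa. None of the 9 was at 0 in all mucosa samples. The part of neutrophil RNA in the epithelial Hcar2 value was not tested.

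**Figure D1:**
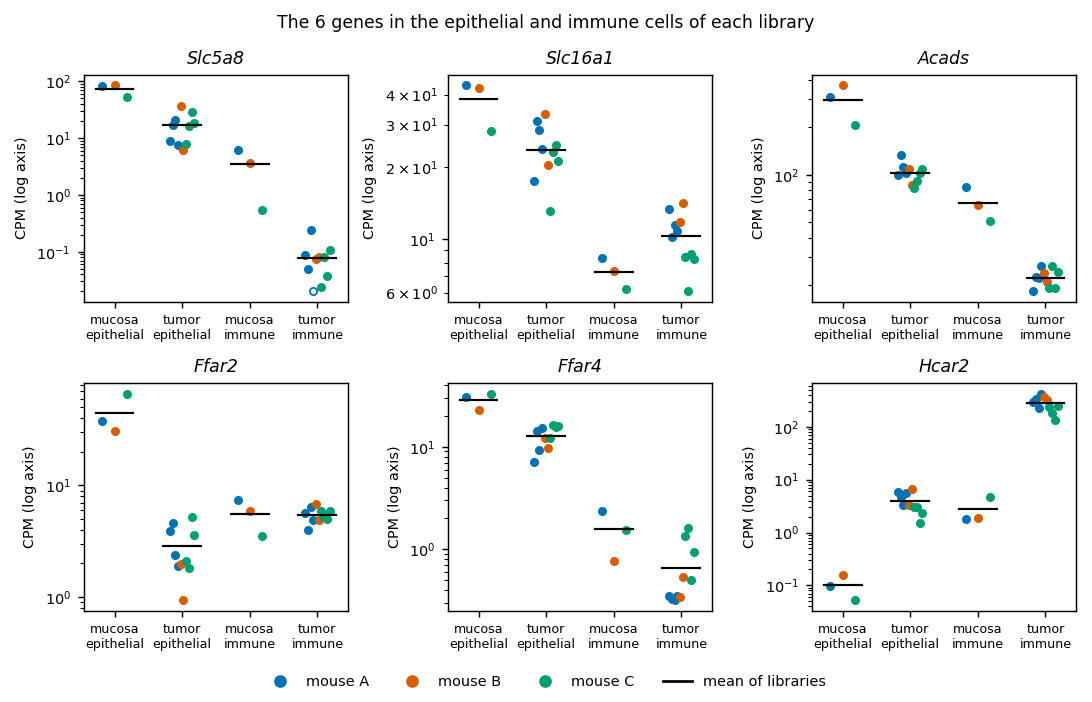
CPM of each of the 6 genes on a logarithmic axis in the epithelial (left) and immune (right) sums of each library, with mucosa and tumors side by side and each mouse in its own color. Epithelial Ffar2 lies at 30.5 to 66.5 CPM in mucosa and at no more than 5.24 CPM in tumors, while immune Hcar2 goes from at most 4.75 CPM in mucosa to at least 133 CPM in tumors.

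The epithelial sums mix classes that differ in size between the tissues, and 13493 of the 17881 tumor epithelial cells belonged to the tumor epithelial-like class, named from Wnt target genes. Without that class, the log2 fold change was -2.31 (SE 0.40) for Ffar2 and -1.35 (SE 0.22) for Acads, both past the threshold of that fit. It was -0.22 (SE 0.25) for Ffar4, -0.40 (SE 0.25) for Slc5a8 and 0.12 (SE 0.20) for Slc16a1, none of them past it. Leaving out the goblet-like cells instead took Ffar4 to -0.30 (SE 0.25). Goblet markers moved with these values, with summed levels of 1460 to 9730 CPM in the epithelial sums of tumors and 18600 to 38900 CPM in those of mucosa, and 6 of the 8 markers were below every mucosa in every tumor. The levels within each class are therefore given next, as means over mice with the SD between mice.

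Ffar2 was highest in the enteroendocrine-like cells of the mucosa, hormone-secreting cells of the epithelium, at 353 ± 9.83 CPM (SD, n = 3 mice, 200 cells). A small epithelial cluster of the mucosa whose leading genes include Neurog3, a factor that specifies endocrine cells, followed at 264 ± 274 CPM in 2 mice, a spread that covers its neighbors on both sides. Goblet-like cells, which secrete mucus, were next with 114 ± 5.84 CPM in mucosa (n = 3), and held 80.5% of the 8977 Ffar2 UMIs in mucosa. In the goblet-like cells of tumors the level was 51.6 ± 21.2 CPM (n = 3), at 27.2 to 107.4 CPM in the 9 tumors with at least 20 such cells, against 118.1, 117.4 and 107.6 CPM in the 3 mucosa samples. The highest tumor thus came close to the lowest mucosa without reaching it. The 2 goblet-like clusters took different shares in the tissues, the larger holding 3000 goblet-like cells of mucosa and 260 of tumors and the smaller 951 and 364. Ffar2 was at 132 ± 8.66 CPM in mucosa and 58.98 ± 28.2 CPM in tumors within the larger cluster, and at 54.1 ± 5.12 and 43.85 ± 14.06 CPM within the smaller, where the tissues did not differ beyond the SD between mice. Absorptive-like cells had 0.281 ± 0.295 CPM in mucosa, and tumor epithelial-like cells 0.574 ± 0.303 CPM.

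Cells were thinned to 2000 UMIs here and below, and those with fewer UMIs were left out of the thinned shares. After thinning, 20.1% of mucosa goblet-like cells and 9.91% of tumor goblet-like cells had a UMI of Ffar2 (64.6% and 38.8% of all such cells without thinning), over the 2 clusters in these unequal shares. In plasma-like cells of tumors, which should lack the receptor, 0 cells had one after thinning, which allows a share of up to 0.0874%. Without thinning, the 3480 plasma-like cells held 5 Ffar2 UMIs.

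Ffar4 had its highest mean in goblet-like cells, and there tumors were not below mucosa. It was at 52.5, 93.7 and 77.2 CPM in the goblet-like cells of the 3 mucosa samples (mean 74.5 ± 20.7, n = 3 mice) and at 72.5 to 110 CPM in those of 9 tumors, with a median of 95.3 (94.1 ± 9.49 over 3 mice), and the groups overlapped. The Paneth-like cells of tumors, named from their defensin and lysozyme genes, had 54.97 ± 4.67 CPM (n = 3), below the goblet-like cells of tumors by more than the SD between mice and within it of those of mucosa. Tumor epithelial-like cells had 8.42 ± 0.811 CPM and, being many, held 43.1% of the 4037 Ffar4 UMIs of tumors, against 24.1% in goblet-like and 22.6% in Paneth-like cells. In mucosa 75.1% of 5855 UMIs were in goblet-like cells. Between the 2 goblet-like clusters the receptors took opposite orders in mucosa, where Ffar4 was at 55.6 ± 7.37 CPM in the larger and 141 ± 39.2 CPM in the smaller, with Ffar2 higher in the larger (n = 3 mice each). In tumors Ffar4 was at 59.8 ± 12.7 CPM in the larger and 153.9 ± 50.2 CPM in the smaller.

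Slc5a8 was highest in absorptive-like cells of the mucosa, the class of mature colonocytes, with 221 ± 91.4 CPM (n = 3). An epithelial cluster led by Defb45, Gsdmc4 and Thbs4 had 145 ± 27.4 CPM in mucosa, another with Hao2 and Reg3b among its leading genes had 145 ± 16.1 CPM, and enteroendocrine-like cells had 133 ± 47.3 CPM, and these 4 did not differ beyond the SD between mice. Levels of 60.03 ± 7.17 CPM in the mucosa cluster led by Nox1 and 47.1 ± 8.4 CPM in the mucosa cluster led by histone and mitosis genes came below them. Tumor epithelial-like cells had 0.420 ± 0.0813 CPM, 86 UMIs in 13493 cells. Thinned to 2000 UMIs per cell, 0.0956% of these cells had a Slc5a8 UMI, against 29.9% (95% exact interval 28.2 to 31.7) of mucosa absorptive-like cells and 0 of 4423 T-like tumor cells, which allows up to 0.0678%.

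Most of the Slc5a8 that tumors still held sat in 1 cluster. The Defb45-led cells held 74.1% of the 5112 Slc5a8 UMIs in tumors and absorptive-like cells 16%. In the Defb45-led cells the level was 114.5 to 167.4 CPM in the 3 mucosa samples and 57.2 to 138 CPM in 10 tumors, with a median of 82.2, so the ranges overlapped. Slc16a1 in these cells was at 62.1 to 66.7 CPM in mucosa and 44.5 to 91.6 CPM in tumors (64.1 ± 2.32 and 61.6 ± 10.3 over 3 mice). Acads there was at 234 to 361 CPM in mucosa and 99.6 to 210 CPM in tumors, without overlap.

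Slc16a1 was uneven across the epithelial classes, at 4.25 ± 1.24 CPM (4 UMIs) in enteroendocrine-like and 4.88 ± 4.99 CPM (3 UMIs) in tuft-like cells of mucosa. Its highest levels were 81.1 ± 14.6 CPM in the Hao2-led, 73.0 ± 11.3 CPM in the absorptive-like and 64.1 ± 2.32 CPM in the Defb45-led cells of mucosa, and neighbors in this order did not differ beyond their spread. Goblet-like cells had 17.7 ± 2.53 CPM in mucosa and 25.8 ± 6.79 CPM in tumors, and tumor epithelial-like cells 17.1 ± 2.66 CPM. The 2 tumor epithelial-like clusters differed, with 22.4 ± 1.34 and 10.3 ± 1.44 CPM (n = 3 mice each).

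Acads was at 557 ± 120 CPM in the Hao2-led cells of mucosa, 344 ± 99.7 in absorptive-like, 302 ± 48.9 in Nox1-led and 290 ± 64.6 in Defb45-led cells. Of these 4, the Hao2-led cells stood above the next by more than the SD between mice, and the other 3 did not differ beyond it. Goblet-like cells had 148 ± 6.13 CPM in mucosa and 88.1 ± 8.59 CPM in tumors, and tumor epithelial-like cells had 94.9 ± 6.18 CPM.

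**Figure D2:**
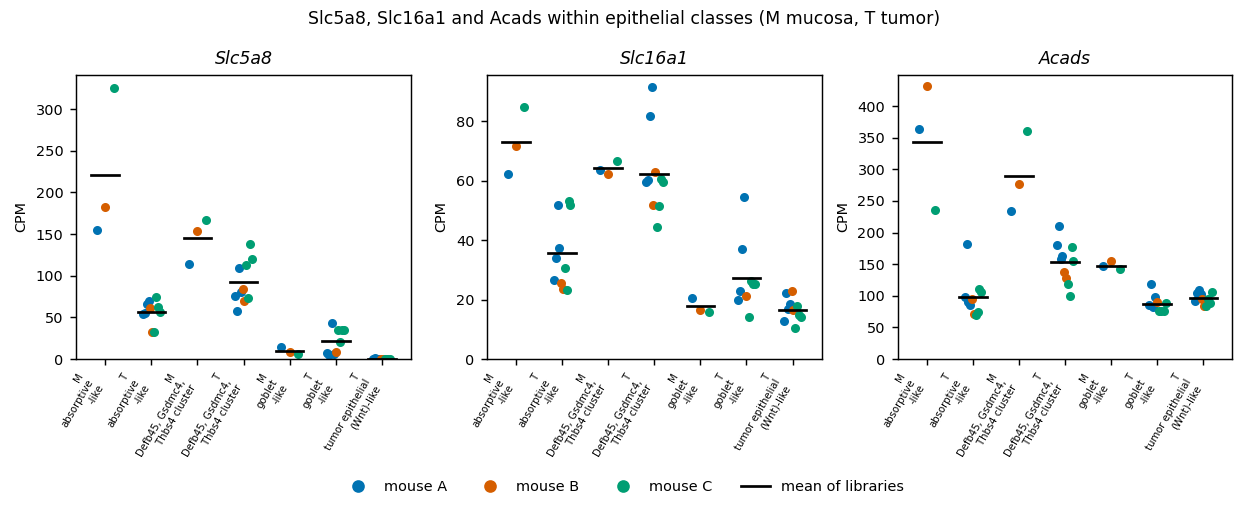
CPM of Slc5a8, Slc16a1 and Acads in 4 epithelial classes of mucosa (M) and tumors (T), with a point for each library in the color of its mouse and a bar at the mean of libraries. All 3 lie lower in tumors than in mucosa in absorptive-like cells, while in the Defb45-led cells Slc16a1 is at 62.1 to 66.7 CPM in mucosa and 44.5 to 91.6 CPM in tumors.

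The absorptive-like class holds cells from both tissues, 2663 from mucosa and 1055 from tumors, and so allows the uptake and oxidation genes to be set side by side within 1 class. Of its 2 clusters, the one led by Clca4b held 1054 cells from tumors and 867 from mucosa, and the other was almost all mucosa. Slc5a8 was at 325, 155 and 182 CPM in mucosa 1, 2 and 3 and at 32.0 to 73.9 CPM in tumors, with a median of 58.6. Slc16a1 was at 62.2 to 84.9 CPM in mucosa and 23.1 to 53.1 CPM in tumors. Acads was at 235 to 432 CPM in mucosa and 69.2 to 182 CPM in tumors. None of the 3 overlapped between the groups, and their log2 fold changes were -2.03 (SE 0.23), -1.09 (SE 0.24) and -1.88 (SE 0.25). All 3 were past the threshold in the lower direction, beside 38.3% of the 8185 genes tested, 19.6% lower. Every tumor was below every mucosa for 10.4% of the genes tested. The 2 Ffar genes and Hcar2 were too low in these cells to be tested. With only the Clca4b-led cluster, the log2 fold changes of Slc5a8, Slc16a1 and Acads were -1.76, -0.97 and -1.28, and with a coarser clustering (Leiden resolution 0.5) they were -1.43, -0.77 and -1.94. Without the 7 libraries labelled female, with 1 mucosa sample left, Slc16a1 had -0.58 (SE 0.32), not past the threshold. Absorptive markers moved with these genes, since 4 of the 10 were below every mucosa in every tumor, with summed levels of 17900 to 35600 CPM in tumors and 36600 to 73300 CPM in mucosa. Their part in the differences was not tested.

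Among immune cells, summed over 18 clusters, Hcar2 differed most between the tissues. It was at 4.75, 1.84 and 1.85 CPM in mucosa 1, 2 and 3, from 43, 7 and 12 UMIs. In tumors it ran from 133 to 425 CPM with a median of 267. The groups did not come near each other, and per UMI of the sums tumors held 86.9 times as many Hcar2 UMIs as mucosa (95% exact interval 67.8 to 113, for counting error only), with a log2 fold change of 7.08 (SE 0.47), or 7.83 without mucosa 1. These sums mix classes that differ in size between the tissues. Neutrophil-like cells held 87642 of the 98812 immune Hcar2 UMIs of tumors, and their larger cluster had 23543 cells in tumors and 44 in mucosa. The fold change therefore describes the sums and not a change within a class, and the part of this mix was not tested. In the fit across 14887 genes, 5 of the 6 genes were past the threshold, 3 higher and 2 lower, beside 62.5% of all genes tested, 33.8% higher and 28.6% lower. In 3 of the 6, Hcar2, Slc5a8 and Acads, the groups did not overlap, beside 16.9% of genes tested with every tumor above every mucosa and 40.8% with every tumor below.

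**Figure D3:**
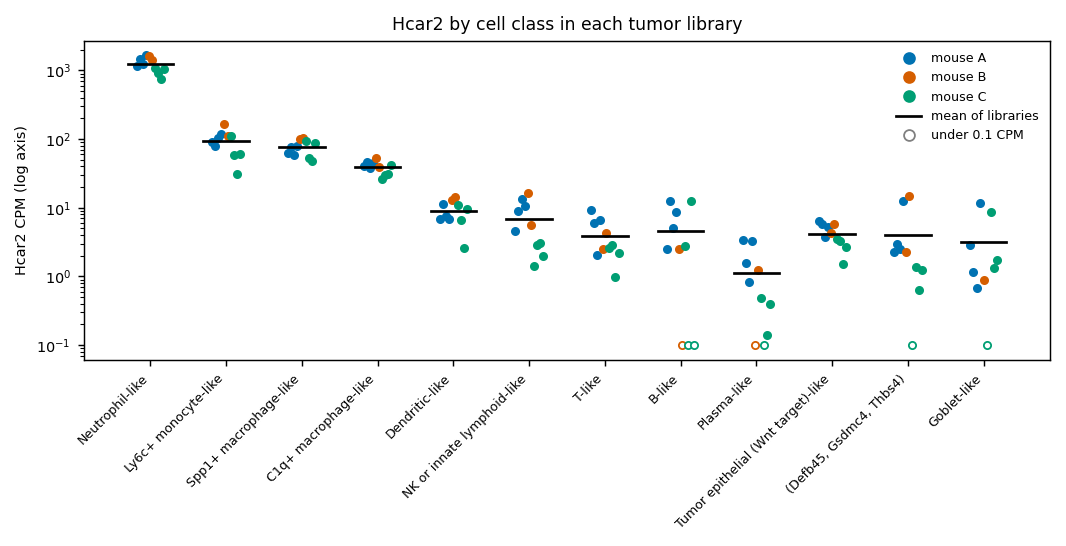
Hcar2 in the classes of tumor cells, as CPM on a logarithmic axis with a point for each tumor in the color of its mouse, open points for values under 0.1 CPM and a bar at the mean of libraries. Neutrophil-like cells lie at 752 to 1663 CPM, above the monocyte-like and macrophage-like classes, while the T-like, B-like and epithelial classes have means under 5 CPM.

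Neutrophil-like cells, the class named from granule and chemotaxis genes of neutrophils, carried 87.7% of the 99954 Hcar2 UMIs of tumors. They had 752 to 1663 CPM in the 10 tumors with a median of 1197 (1278 ± 293 over 3 mice). The smaller of the 2 neutrophil-like clusters had 1818 ± 236 CPM and the larger 1249 ± 323 CPM. Next came Ly6c+ monocyte-like cells with 101 ± 36.6 CPM, Spp1+ macrophage-like cells with 80.3 ± 18.1 CPM and an unnamed myeloid cluster with Clec4a3 among its leading genes with 80.0 ± 21.6 CPM, which did not differ beyond their spread. C1q+ macrophage-like cells had 40.4 ± 7.20 CPM, and dendritic-like cells 9.74 ± 3.39 CPM. In 1 mouse with at least 20 mast-like cells in a tumor, these had 83.6 CPM. Outside the immune sums, an unnamed cluster led by Spock2, Saa3 and Cxcr2 had a median of only 626.5 UMIs per cell. Its Hcar2 level was 200.4 CPM in the 1 tumor with at least 20 of its cells, from 23 UMIs. Stfa2l1 and Mmp8 were also among its leading genes, and it showed 5 epithelial markers beside 4 immune ones. The part of neutrophil RNA in its Hcar2 value was not tested.

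The summed level of the 9 neutrophil markers was 34000 to 53000 CPM in the immune sums of tumors and 1070 to 1340 CPM in those of mucosa. Mucosa held 50 neutrophil-like cells in all, and 66.7% of its 84 Hcar2 UMIs were in them. Thinned to 2000 UMIs per cell, with shallower cells left out, 73.3% of neutrophil-like tumor cells had a UMI of Hcar2 (95% exact interval 72.6 to 73.9). Without thinning the share was 77.3% of all of them, at a median depth of 2515 UMIs. The thinned share was 13.3% in Ly6c+ monocyte-like, 12.0% in Spp1+ macrophage-like and 6.92% in C1q+ macrophage-like cells. In T-like cells, which should lack the receptor, it was 0.701% (0.477 to 0.993, median depth 3588), and in tumor epithelial-like cells 0.916% (0.757 to 1.10, median depth 11420). These intervals cover counting error over cells pooled from the tumors, so the last 2 shares are not compared by them. The source of the Hcar2 UMIs in tumor epithelial-like cells was not tested.

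Hcar2 was also set against S100a8, an abundant neutrophil gene. There were 15.1 Hcar2 UMIs per 1000 S100a8 UMIs in neutrophil-like cells of tumors. The ratio was 36.5 to 48.8 in B-like, plasma-like and T-like cells, 81.7 in tumor epithelial-like cells, 120 in Ly6c+ monocyte-like cells and 438 and 585 in C1q+ and Spp1+ macrophage-like cells. The part of free neutrophil RNA in the Hcar2 values of these classes was not tested.

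Ffar2 in immune cells was at 3.54, 7.34 and 5.85 CPM in mucosa and at 3.96 to 6.78 CPM in tumors, with a median of 5.46. The groups overlapped fully, with means of 5.58 and 5.47 CPM, so no direction is read. The log2 fold change was 0.60 (SE 0.20) with TMM scaling but 0.02 (SE 0.21) with library totals, 0.26 (SE 0.21) without neutrophil-like cells and 0.35 without mucosa 1. Of these, only the value with TMM scaling and all cells and libraries was past the threshold. That change of scaling moved the median log2 fold change of all immune genes by -0.58, and the share of calls that were higher from 54.2% to 28.7%. Slc16a1 depended on it too, at 6.19, 8.39 and 7.40 CPM in mucosa and 6.06 to 14.1 CPM in tumors, with a log2 fold change of 1.09 (SE 0.22) with TMM and 0.51 (SE 0.24), no longer past the threshold, with library totals. Ly6c+ monocyte-like cells, 10879 in tumors and 49 in mucosa, held 1623 of its 3654 immune UMIs in tumors, and their part was not tested.

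Acads was at 50.7, 84.2 and 64.4 CPM in the immune cells of mucosa and 18.2 to 26.6 CPM in those of tumors, without overlap, and its log2 fold change was -0.97 (SE 0.14), or -1.56 with library totals and -1.47 without the 7 libraries labelled female, with 1 mucosa sample left. Slc5a8 had 53 UMIs in the immune cells of mucosa and 28 in those of tumors. Its level was 0.553, 6.29 and 3.70 CPM in mucosa and 0 to 0.238 CPM in tumors, from few UMIs in either tissue, with a log2 fold change of -4.73 (SE 0.61), or -4.06 without mucosa 2. Epithelial markers moved with both, since the summed level of the 8 epithelial markers was 190 to 1710 CPM in the immune sums of mucosa and 44.9 to 119 CPM in those of tumors, with 6 of the 8 below every mucosa in every tumor. The immune sums also mix classes that differ in size between the tissues. A cluster led by Cd160, Ccl5 and Gzma held 3930 cells of mucosa and 73 of tumors. In mucosa it held 709 of the 1198 immune Acads UMIs, at 85.2 ± 23.6 CPM, and 37 of the 53 Slc5a8 UMIs. Tumors held 25530 neutrophil-like cells, with Acads at 2.72 CPM. The parts of epithelial RNA and of this mix of classes in the immune values of Acads and Slc5a8 were not tested. Ffar4 was at 1.55, 2.36 and 0.770 CPM in mucosa and 0.318 to 1.62 CPM in tumors, the 1 gene of the 6 that was not past the threshold in immune cells (log2 fold change -0.56, SE 0.62).

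Within immune classes of tumors, Ffar2 was highest in dendritic-like cells, which present antigen to T cells, with 33.9 ± 2.71 CPM (n = 3 mice, 22.3 to 41.1 CPM in 10 tumors). These 3313 cells held 32.6% of the 2804 Ffar2 UMIs of tumors, ahead of neutrophil-like cells with 21.2% and goblet-like cells with 21.1%. T-like cells had 9.07 ± 2.51 CPM and neutrophil-like cells 8.59 ± 1.18 CPM, which did not differ beyond their spread, and C1q+ macrophage-like cells 0.0992 ± 0.115 CPM. Thinned to 2000 UMIs, 5.95% of dendritic-like tumor cells and 1.29% of neutrophil-like ones had a UMI of Ffar2.

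Dendritic-like cells were divided further by the UMIs of their subset genes, a division chosen after the levels were seen. The 4 groups below held 357 cells (Cd209a), 1288 (Ccr7, Fscn1 or Ccl22), 446 (Xcr1 or Clec9a) and 1002 (none of these) of the 3313 in tumors. The remaining cells are in no group. The means over mice use 7 tumors for Cd209a, 9 for Xcr1 or Clec9a and 10 for the others. Cells of tumors with Cd209a, a marker of monocyte-derived and type 2 conventional dendritic cells, had 55.6 ± 18.7 CPM of Ffar2, cells with Ccr7, Fscn1 or Ccl22, markers of migrating dendritic cells, had 25.7 ± 3.9 CPM, and cells with Xcr1 or Clec9a, markers of type 1 conventional dendritic cells, had 9.05 ± 5.48 CPM. The 1002 cells with a UMI of none of these genes held 425 Ffar2 UMIs and were at 62.1 ± 9.76 CPM, which did not differ from the cells with Cd209a beyond the spread. Ffar4 was instead highest in the Xcr1 or Clec9a group, with 15.6 ± 5.32 CPM in cells with Xcr1 or Clec9a (13.1, 12.0 and 21.7 CPM in mice A, B and C) against 0.701 ± 1.21 CPM and 0.510 ± 0.560 CPM in the cells with Cd209a and with Ccr7, Fscn1 or Ccl22, which did not differ beyond their spread, and 3.77 ± 4.08 CPM in those with none of these genes. Ffar4 in all dendritic-like cells of tumors was 5.25 ± 3.18 CPM.

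Slc16a1 was highest among tumor immune classes in Ly6c+ monocyte-like cells, at 24.99 ± 6.36 CPM, which held 15.4% of its UMIs in tumors. The cluster with Clec4a3 among its leading genes had 19.35 ± 11.05 CPM from 40 UMIs, within the spread of the monocyte-like value. NK or innate lymphoid-like cells had 18.02 ± 4.06 CPM, T-like cells 16.7 ± 1.92 CPM and Spp1+ macrophage-like cells 16.2 ± 1.97 CPM, while neutrophil-like cells had 1.21 ± 0.309 CPM. T-like cells of mucosa were at 4.76 ± 0.907 CPM from 10 UMIs. Acads in neutrophil-like cells was at 2.72 ± 0.648 CPM, below every other class with at least 2 mice.

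**Figure D4:**
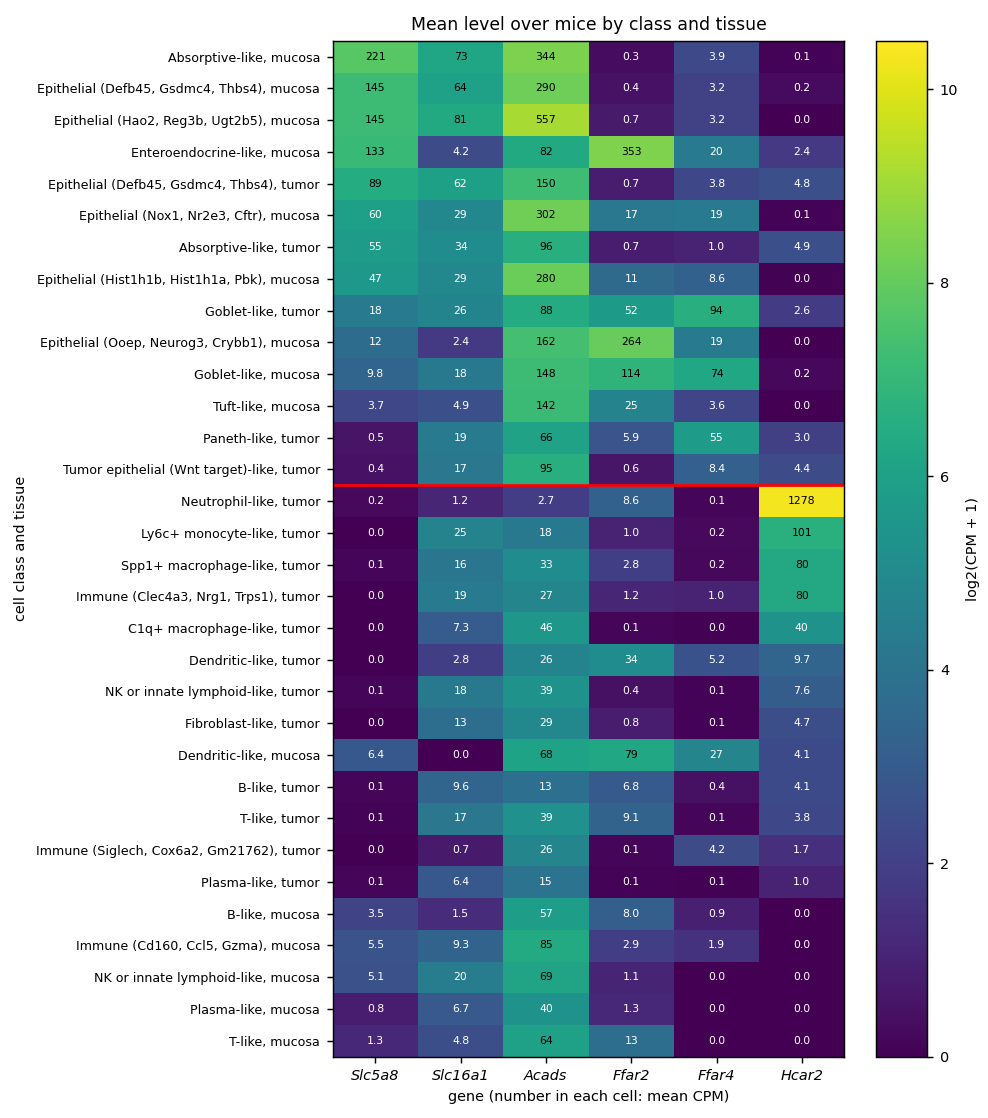
Mean CPM over mice of each of the 6 genes in each class and tissue with at least 2 mice, with the color on the scale of log2(CPM + 1), the mean CPM printed in each cell and a red line between the epithelial classes above and the other classes below. Levels of Hcar2 over 40 CPM all belong to myeloid classes of tumors, levels of Slc5a8 over 40 CPM all belong to epithelial classes, and Acads is lowest in neutrophil-like cells at 2.72 CPM.

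To place the 6 genes among those around them, 57 further genes in 8 lists were taken from the pathways of fatty acid sensing, monocarboxylate transport, acyl-CoA synthesis, beta-oxidation, ketone bodies, propionate use, class I histone deacetylases and their regulators. The lists were chosen with earlier results of these data known, so their counts and p-values below describe the fits and are no independent support. In epithelial cells, 41 of the 50 tested were lower in tumors, 5 were higher and 4 were not past the threshold (edgeR, adjusted over all genes), with a median log2 fold change of -1.27, beside 30.1% lower and 33.6% higher of all genes tested and their median of 0.04. Without the tumor epithelial-like cells 33 of 47 were lower and 2 higher, beside 19.9% lower and 19.7% higher of the 13089 genes tested in that fit. In absorptive-like cells 29 of 41 fell and 2 rose, with a median of -1.06, beside 19.6% of all genes tested there that were lower. In immune cells 21 of 46 fell and 10 rose, beside 28.6% lower and 33.8% higher of all genes, but with library totals 33 fell and 5 rose, so single immune directions below are given only where both scalings gave the same call. The epithelial markers given above for the immune sums, lower in tumors, moved with the genes that fell, among them Cdx2 (13.5 CPM in mucosa and 0.0917 CPM in tumors) and Bdh1 (14.9 and 1.89 CPM), and their part was not tested. In epithelial cells library totals gave 35 lower and 6 higher.

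The partners of Slc5a8 and Slc16a1 in transport split. Slc16a3, which exports lactate, rose from 4.23 to 56.1 CPM in epithelial cells (log2 fold change 3.46, SE 0.23, edgeR adjusted p = 1.25e-07), and it rose in absorptive-like cells too, from 23.5 to 70.5 CPM (1.51, SE 0.27, adjusted p = 0.00031). Neutrophil markers moved with it there, with summed levels of 467 to 3000 CPM in the absorptive-like sums of tumors and 70.2 to 135 CPM in those of mucosa, 2 of the 9 higher in every tumor than in every mucosa, and their part was not tested. Slc16a9, a relative of Slc16a1, fell by 3.75 on the log2 scale (adjusted p = 3.32e-06), and Abcg2, an efflux pump, fell too (log2 fold change -3.07, SE 0.39, adjusted p = 2.07e-05). Bsg, the chaperone that brings Slc16a1 and Slc16a3 to the membrane, was lower by a smaller margin (log2 fold change -0.52, SE 0.11, adjusted p = 0.000806), a call lost without tumor epithelial-like cells (-0.26, adjusted p = 0.0656), and Emb, another chaperone, was higher at low levels (0.592 and 3.05 CPM). Immune markers moved with Emb, which was at 354 CPM in the immune sums of tumors, since 6 of the 8 were higher in the epithelial sums of every tumor than of every mucosa, with summed levels of 29.7 to 92.6 CPM in tumors and at most 13.8 CPM in mucosa, and their part in the Emb value was not tested. In immune cells Slc16a3 rose from 12.7 to 226 CPM (log2 fold change 4.74, SE 0.21, adjusted p = 2.25e-10). All 9 neutrophil markers were higher in the immune sums of every tumor than of every mucosa, with summed levels of 34000 to 53000 CPM and 1070 to 1340 CPM. Ly6c+ monocyte-like cells also differed in number, with 10879 in tumors and 49 in mucosa. The same held for C1q+ (4348 and 46) and Spp1+ (4265 and 44) macrophage-like cells. The part of neutrophils and of these classes in the rise of Slc16a3 was not tested.

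Among the genes around Acads, 18 of 19 genes of mitochondrial beta-oxidation fell in epithelial cells and 17 of 18 in absorptive-like cells, none rose, and Acadl was the exception in both (log2 fold change -0.17, SE 0.20, and 0.05, SE 0.19). Without tumor epithelial-like cells 16 of the 19 were lower in the epithelial sums. Hadh, which follows Acads in the cycle, went from 236 to 81.4 CPM (log2 fold change -1.79, SE 0.17, adjusted p = 2.15e-06), and Acaa2, a thiolase, from 153 to 47.2 CPM (-1.96, SE 0.15, adjusted p = 4.66e-07). Acat1, another thiolase, went from 158 to 63.1 CPM (-1.58, SE 0.19, adjusted p = 1.51e-05). Acadm, the medium-chain relative of Acads, was at 105 CPM in mucosa and 52.6 CPM in tumors (log2 fold change -1.26, SE 0.15, adjusted p = 1.04e-05).

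Of the genes of ketone body synthesis and use, Bdh1, which makes beta-hydroxybutyrate, a ligand of Hcar2, went from 79.7 to 25.8 CPM in epithelial cells (log2 fold change -1.88, SE 0.20, edgeR adjusted p = 3.69e-06) and from 63.9 to 19.9 CPM in absorptive-like cells (-1.77, SE 0.16, adjusted p = 1.1e-06). All 4 genes that turn propionate into succinyl-CoA, Pcca, Pccb, Mcee and Mmut, fell in both sums, by 1.2 to 1.47 on the log2 scale in epithelial cells. Oxct1, which uses ketone bodies, fell in epithelial cells (-0.98, SE 0.19, adjusted p = 0.00047), but not without tumor epithelial-like cells (0.1, adjusted p = 0.673), and was not past the threshold in absorptive-like cells (0.19, SE 0.22, adjusted p = 0.532).

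Of the synthetases that give acetate, propionate or butyrate their CoA, 3 of 4 fell in epithelial cells, among them Acss2 (-1.79, SE 0.20, adjusted p = 6.92e-06) and Acsm3 (-1.47, SE 0.35, adjusted p = 0.00251), while Acss3 rose from 0.178 to 1.31 CPM (adjusted p = 0.0276). Without tumor epithelial-like cells Acsm3 was at 0.3 (adjusted p = 0.382), and 0 of the 3 synthetases tested in that setting were higher. In absorptive-like cells Acss2 (-0.22, SE 0.27) and Acsm3 (0.51, SE 0.43) were not past the threshold. Among the class I histone deacetylases, the enzymes that butyrate inhibits, Hdac2 rose from 30.8 to 57.1 CPM in epithelial cells (0.63, SE 0.12, adjusted p = 0.000491), a call lost without tumor epithelial-like cells (-0.01, adjusted p = 0.96), and Hdac3 fell slightly (-0.40, SE 0.08), a call lost with library totals (adjusted p = 0.146). Of the 4 listed deacetylases, 1 was higher and 1 lower with all epithelial cells, while 0 were higher and 3 lower without tumor epithelial-like cells. Of the 7 regulators, 6 were lower and 1 higher in epithelial cells. Without tumor epithelial-like cells 4 of 7 were lower and 0 higher, and in absorptive-like cells 2 of 6 were lower and 0 higher. Cdx2, a factor of intestinal identity, went from 201 to 10.3 CPM in epithelial cells (-4.57, SE 0.61, adjusted p = 2.71e-05) and from 194 to 30.4 CPM in absorptive-like cells (-2.80, SE 0.53, adjusted p = 0.00058). Its SD between tumors exceeded its mean in both, at 13.2 and 32.0 CPM. Ppara and Pparg, nuclear receptors of fatty acids, fell by 3.21 and 2.03 on the log2 scale in epithelial cells, and Ppargc1a rose (0.99, SE 0.32, adjusted p = 0.0161). The Ppargc1a call was lost without tumor epithelial-like cells (0.62, adjusted p = 0.163), and in absorptive-like cells the gene was at -0.5 (SE 0.36, adjusted p = 0.301). The other short-chain fatty acid receptors were scarce, and of those only Ffar3 and Olfr78 could be tested in epithelial cells, both lower in tumors at under 1 CPM, and both calls were lost with library totals (adjusted p = 0.0614 and 0.0572). In tumors the SD between libraries exceeded the mean for both (Ffar3 0.189 ± 0.441 CPM, Olfr78 0.128 ± 0.325 CPM). Ffar3 was among the leading genes of a tuft-like cluster with 31 cells of tumors and 0 of mucosa. Gpr84, a receptor of medium-chain fatty acids, was at 26.3 CPM in the immune cells of tumors and 0.774 CPM in those of mucosa (log2 fold change 5.93, SE 0.49, adjusted p = 7.68e-08). The neutrophil markers and the numbers of the other myeloid cells moved with it too, as given above for immune Slc16a3. Their part in the Gpr84 value was not tested.

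**Figure D5:**
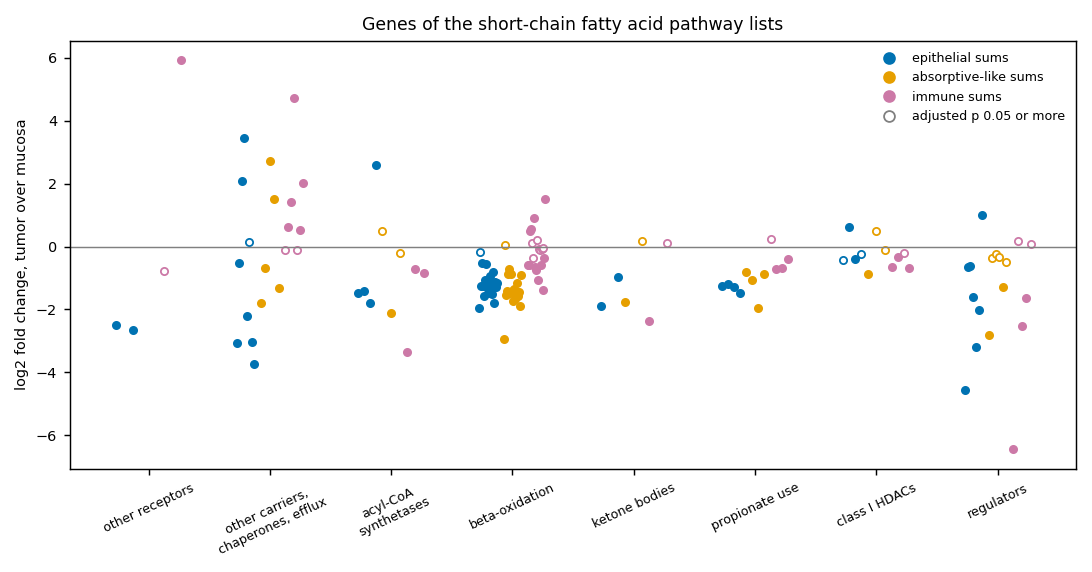
Log2 fold change, tumor over mucosa, of the listed genes in the epithelial, absorptive-like and immune sums, with a point for each gene tested, open where the adjusted p was 0.05 or more, and the 8 lists side by side. Most beta-oxidation and propionate genes lie below 0 in the epithelial and absorptive-like sums, with Hadh at -1.79 in epithelial sums, and the highest carrier in the immune sums is Slc16a3 at 4.74.

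The 3 mice were compared on their tumors alone. In epithelial cells none of the 6 genes differed between mice by edgeR (adjusted p from 0.213 for Hcar2 to 0.727 for Slc5a8), beside 0.451% of 15523 genes that did, a count of 70 that ran from 0 to 1570 when single tumors were left out. In immune cells the background was 2.22% of 14711 genes, a count of 326 that ran from 18 to 513. Ffar4 averaged 0.334, 0.436 and 1.10 CPM in the tumors of mice A, B and C (edgeR adjusted p = 0.0468), with the 4 tumors of mouse C at 0.497 to 1.62 CPM, above the 4 of mouse A at 0.318 to 0.347 CPM. Over 15 other settings this adjusted p ran from 0.00201 to 0.153 and was past the threshold in 6, and it was lost without any of tumors 1, 2, 4, 5, 6, 7, 8 or 10 (adjusted p 0.0564 to 0.153). Slc16a1 averaged 11.5, 12.9 and 7.87 CPM (adjusted p = 0.064, 0.00418 to 0.168 over the other settings) and Hcar2 321, 345 and 198 CPM (adjusted p = 0.154, 0.0365 to 0.339), neither past it.

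The profile of each gene over 45 class-by-tissue means was compared with those of 14732 genes, as a description, and the 3 nearest genes of each were taken. For Hcar2 these were Hdc (Pearson r = 0.927), which makes histamine and is also one of the neutrophil markers used here, Lsmem1 (0.907) and Mirt2 (0.900). Slc5a8 was most like Nr1h4 (0.892), a bile acid receptor, Maoa (0.884), a monoamine oxidase, and 2610528A11Rik (0.883). Acads followed Atp5o (0.940), a subunit of the ATP synthase, and Uqcrc1 and Uqcrc2 (0.930 and 0.929), subunits of respiratory complex III. Ffar4 was closest to Fgfr3 (0.811), Klhdc8a (0.788) and Pdia5 (0.771), Ffar2 to Hepacam2 (0.770), Rgs17 (0.715) and Hpd (0.707), and Slc16a1 to Gipc1 (0.746), Zdhhc21 (0.701) and Endog (0.691). Among the 6 genes themselves, r was 0.653 for Ffar2 with Ffar4, 0.750 for Slc5a8 with Acads and -0.542 for Hcar2 with Acads. The means share libraries and differ in depth, so no p is given.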

How the data were processed

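Cell Ranger (6.0.0 in the submitters' processing notes and the file headers, while the paper's text names another version) was run by the authors on mm10, and the counts they deposited are UMIs per gene and barcode in 1 unnormalized matrix per library.

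The 6 genes and the 57 listed genes were chosen with earlier results of these data known. A cell needed 500 UMIs, 200 detected genes and a mitochondrial share below 25%, and doublets were removed at 0.8% per 1000 barcodes, leaving 106735 cells of 137591 barcodes. Clusters came from 2000 variable genes without the genes described here, 30 principal components, 20 neighbors and the Leiden method (resolution 1, seed 11). A mixed cluster was divided once more after it was seen, giving 39. Classes were named from marker lists, and names are rebuilt, not the authors'. Counts summed per library were tested with edgeR 4.0.16 (quasi-likelihood, TMM, filterByExpr, Benjamini-Hochberg adjustment over all genes), and the fit of the epithelial sums was also run on simulated counts. CPM were computed from the same sums, and class levels need at least 20 cells per library. The listed genes named were up to 3 per list with the largest epithelial change among those past the threshold and Ffar3, Bsg, Acsm3, Hadh and Acadm, while Emb, Acadl, Oxct1, Mmut, Ppargc1a, Olfr78 and Gpr84 were chosen after their values were seen. Some genes are not reported here. Alternatives included DESeq2 1.42.0.

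Replicate numbers do not pair the tissues, but the mouse does by its animal code. Deviations of tumors and mucosa of 1 mouse correlated across genes with r = 0.178, 0.0741 and 0.202 (mice A, B, C) in epithelial and 0.219, -0.016 and 0.199 in immune sums, and a fit with the mouse as replicate block was an alternative.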

Additional observations from a re-analysis of the deposited data

Results flagged for a closer look

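Among 40 groups of 4 to 10 libraries checked for a single library far from the others, 2 had one, and chance gives about 1 in 20, or 2. Hcar2 in the absorptive-like cells of tumor 9 was at 17.8 CPM from 15 UMIs, and the next tumor was at 4.04 CPM. Acads in the absorptive-like cells of tumor 6 was at 182.0 CPM from 204 UMIs, and the next tumor was at 111 CPM.

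Cells outside the epithelial and immune clusters, 1422 in tumors, entered none of the tissue fits above. In them Hcar2 was at 6.97 CPM in tumors (56 UMIs) with none in mucosa, and Slc16a1 was at 9.21 CPM in tumors (74 UMIs), above the highest mucosa value of 8.21 CPM. Tumor 5 held 32 of these Hcar2 UMIs and 38 of these Slc16a1 UMIs. Without it, a setting added after the values were seen, Hcar2 was at 3.59 CPM and Slc16a1 at 5.38 CPM, below that mucosa value, and only 3 of the 10 tumors exceeded it for Slc16a1. By class, fibroblast-like cells, 830 in tumors and 14 in mucosa, held 63 of the 74 Slc16a1 UMIs and 23 of the 56 Hcar2 UMIs. The cluster led by Spock2, Saa3 and Cxcr2, with 184 cells in tumors and 0 in mucosa, also held 23 of the Hcar2 UMIs.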

How the results depend on the processing

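Of the 537 values recomputed under other settings, 478 kept their direction and stayed within the spread of libraries or within 1.5 times the count, and 2 log2 fold changes turned their sign. They were epithelial Slc16a1 without tumor epithelial-like cells (0.12, not past the threshold) and immune Ffar4, not past the threshold in either, with immune cells chosen without clusters (0.34). Without tumor epithelial-like cells, the epithelial sums gave -2.31 for Ffar2, -0.22 for Ffar4, -0.40 for Slc5a8 and -1.35 for Acads, with 5194 genes called in place of 9878. Without goblet-like cells Ffar4 was at -0.30. In sums over all retained cells Ffar2 was at -3.25, Ffar4 at -2.09, Hcar2 at 8.69 and Acads at -2.25. With doublets kept, epithelial Hcar2 was at 6.64.

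With library totals in place of TMM, Acads was at -1.52 in epithelial and -1.56 in immune sums, immune Ffar2 at 0.02, Slc16a1 at 0.51 and Hcar2 at 6.51, and calls were 6937 higher and 3084 lower in epithelial sums (5208 and 4670 with TMM) and 3074 and 7636 in immune sums (5038 and 4263 with TMM). Without neutrophil-like cells immune Ffar2 was at 0.26. Without the 7 libraries labelled female, which leaves mucosa 2 alone against 5 tumors and assumes that it varies like them, immune Ffar2 was at 0.22, immune Acads at -1.47, absorptive-like Slc5a8 at -1.57 and absorptive-like Slc16a1 at -0.58, with 5813 immune and 1551 absorptive-like genes called (9301 and 3133 with all). Immune cells chosen without clusters gave 1.51 for Slc16a1. At Leiden resolution 0.5 absorptive-like Slc5a8 was at -1.43 with 5799 genes called, and with only the Clca4b-led cluster Acads was at -1.28. These settings on library totals, sex labels, neutrophil-like cells and the Clca4b-led cluster were added after the data were seen. The cause of these shifts was not tested.

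Leaving out each library in turn moved immune Hcar2 between 6.83 and 7.83. Immune Ffar2 was no longer past the threshold without mucosa 1 and when tumors were summed per mouse. With the mouse as replicate block no call on the 6 genes changed (epithelial Ffar2 -4.35, immune Hcar2 6.98), and 10203 epithelial, 9477 immune and 3132 absorptive-like genes were called. Of the listed genes, the block added epithelial Hdac1 (adjusted p = 0.0151) and immune Acat1 (adjusted p = 0.0125) and lost absorptive-like Emb (adjusted p = 0.0942). With tumors summed per mouse, 1 class I deacetylase was lower in epithelial sums (2 with the block). In immune sums 8 beta-oxidation genes were lower (9 with the block).

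Between mice, 70 epithelial genes were called by edgeR (2779 at an unadjusted p under 0.05), against 1151 by the DESeq2 likelihood ratio test, 24 with no filter on low counts and 9 under 10% mitochondrial UMIs. Leaving out single tumors gave 0 (1978 at an unadjusted p under 0.05 without tumor 2) to 1570, with 850 without tumor 10 and 1570 without tumor 9, the 2 tumors of mouse B, which then has 1 tumor, assumed to vary like those of the other mice. In immune sums 326 were called, 1259 by DESeq2 and 18 to 513 without single tumors.

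Ffar2 in enteroendocrine-like mucosa cells was at 337 CPM at Leiden resolution 0.5 and 326 as a mean over cells, and Ffar4 in goblet-like tumor cells at 106 as a mean over cells. Without thinning, the shares of cells with a UMI were 67.9% for Slc5a8 in absorptive-like mucosa cells, 0.497% in tumor epithelial-like cells, 77.3% for Hcar2 in neutrophil-like cells and 64.6% for Ffar2 in goblet-like mucosa cells.

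Mucosa held few immune and tumors few absorptive-like UMIs, which limits those sums. There were 3 mucosa libraries, and tissue, dissociation and depth cannot be told apart.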
